A study of Mus musculus with 3 samples.

Results

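RNA-seq profiles of 2 sorted mouse digit cell populations were compared, the Lgr5- cells of embryonic stage E14.5 over the Sox9+ cells of embryonic stage E13.5. Genes were matched by symbol. A gene counted as measured when it reached at least 1 FPKM (a fragment count divided by gene length and library size) in the higher of these libraries, which 12482 of the 23284 listed symbols did. Differences are log2 ratios of FPKM + 1, Lgr5- over Sox9+, and every fold given is the ratio of FPKM + 1, which understates the difference of weakly expressed genes.

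The Sox9+ cells were GFP-positive cells sorted from developing digits of Sox9-eGFP/+ embryos at E13.5, and the labels do not name the limb. The Lgr5- cells were the GFP-negative cells of E14.5 forelimb digits from Lgr5-eGFPCreERT2/+ embryos, an allele that one label spells Lgr5-GFP-CreERT, and were labelled as non-interzone. A further library of the same E14.5 line held the GFP-positive, Lgr5+ cells, labelled as interzone, and its values are given beside the others as a reference point. Both lines were on the background written C57/bl6. Reporter fluorescence from 1 allele set each gate. The Sox9+ gate selected cells with reporter signal, and the Lgr5- gate selected digit cells without it. Markers of other cell types were present in each library, as given below. The sources used here do not give the numbers of embryos or cells. Each population was read in 1 library, so no difference has a replicate check, no p-value is given, and the values compare libraries and not conditions. Stage, mouse line, sorting gate and possibly limb differ together between these libraries and cannot be told apart.

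Sox9 is the transcription factor that commits limb mesenchyme to cartilage, where with Sox5 and Sox6 it switches on type II collagen and the proteoglycan matrix. Where a joint will form, chondrogenic cells of the digit ray turn into the interzone, a band of Gdf5-expressing cells in which Lgr5, a receptor for the Wnt-enhancing R-spondins, marks a subset. Around the cartilage lie the perichondrium, tendon progenitors and the mesenchyme between the digits, where Wnt signals and retinoic acid act and cartilage does not form.

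The libraries were similar in completeness, with 11924 to 12002 genes at 1 FPKM or more and FPKM sums of 534025 to 593871. Read counts are not in these values, so depth is unknown and no counting interval can be given. Of the FPKM sum, the rRNA precursor Rn45s made up 6.43% in Sox9+ and 6.13% in Lgr5-, and haemoglobin genes made up 0.0295% and 1.01%. Xist and 4 Y-linked genes all lay within 2-fold.

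Most genes stood close to each other in the compared libraries. Of the 12482 measured genes, 11481 (92%) lay within 2-fold, 384 were higher in Lgr5- by 2-fold or more, and 617 were lower by as much. The background shares were thus 3.08% higher and 4.94% lower, and the median log2 ratio of all measured genes was -0.006. At 4-fold or more there were 62 higher and 92 lower genes, and at 16-fold or more 11 and 19. The excess of lower genes was most visible among abundant genes, where 91 of 934 genes at 100 FPKM or more were lower (9.74%) and 27 were higher (2.89%). That split depends on scaling, since of the calls 38.4% were on the higher side as deposited, 50% when haemoglobin genes and Rn45s were left out of the sum (490 and 490) and 49% when the 100 most abundant genes were left out (479 and 498). Rescaling to TPM (each library to the same sum) gave 646 higher and 617 lower, 51.1% on the higher side, but it raises all values and so also makes the pseudocount of 1 smaller relative to them. These 3 rescalings moved the median of all genes up by 0.107 to 0.115. Calls near the limit, such as those of Meis2, Notum, Sfrp4, Tgfbi and Top2a, were lost under at least 1 other scaling.

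**Figure D1:**
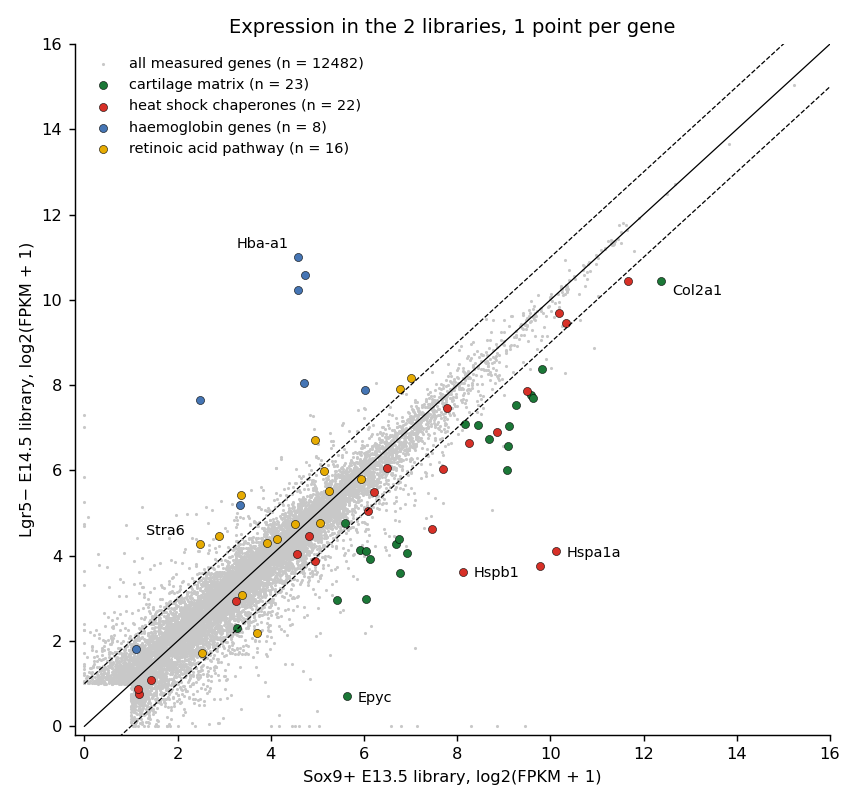
Log2(FPKM + 1) of each of the 12482 measured genes in the Sox9+ E13.5 library (horizontal axis) and the Lgr5- E14.5 library (vertical axis), 1 point per gene, with cartilage matrix, heat shock, retinoic acid and haemoglobin genes coloured and dashed lines at 2-fold. Most points follow the diagonal, the 23 cartilage matrix genes all lie below it, and the haemoglobin genes lie above it.

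The genes set as markers of the comparison lay on both sides. They were chosen with earlier results of these data known, so their separation is a description and not a test. Col2a1, the gene of type II collagen (chr15:97975602-98004695, minus strand, GRCm38), was at 5304 FPKM in Sox9+, 1401 in Lgr5- and 2253 in Lgr5+, 3.78-fold lower in Lgr5- than in Sox9+. Epyc, a small leucine-rich proteoglycan of growth cartilage (chr10:97644068-97682454, plus strand), was at 48.8, 0.63 and 1.2 FPKM in the same order, 30.6-fold lower. Both cartilage genes were therefore lowest in the Lgr5- library, but Col2a1 was still among its abundant transcripts. Axin2, a feedback inhibitor and target of canonical Wnt signalling (chr11:108920349-108950783, plus strand), was at 2.12, 8.94 and 3.13 FPKM, 3.19-fold higher in Lgr5-. Stra6, the cell-surface receptor that takes up retinol (chr9:58063788-58153996, plus strand), was at 4.58, 18.3 and 4.13 FPKM, 3.45-fold higher. For both, the Sox9+ and Lgr5+ libraries were low and close to each other while the Lgr5- library stood apart.

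The genes behind the sorting reporters differed less. Sox9 was at 255 FPKM in Sox9+, 147 in Lgr5- and 332 in Lgr5+, so that the Lgr5- value was 1.73-fold lower than the Sox9+ value and within the 2-fold limit. Lgr5 was at 3.48, 1.36 and 26.8 FPKM, a log2 ratio of -0.92 between Lgr5- and Sox9+. By these values the Lgr5- library was low in Lgr5, as its label says, and was not devoid of chondrogenic transcripts. In such bulk libraries, fewer cells of a type and less RNA per cell cannot be told apart.

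Cartilage matrix genes were lower in the Lgr5- library almost throughout. Of 23 measured members of the list, 21 were at least 2-fold lower and none was higher, with a median log2 ratio of -1.96 against -0.006 over all genes. The remaining members, Otor (-0.96) and Col27a1 (-0.84), were also below 0, and Ucma did not reach 1 FPKM. The largest ratio after Epyc was that of Snorc, a transmembrane chondroitin sulfate proteoglycan listed as 3110079O15Rik, at 108 FPKM in Sox9+, 11 in Lgr5- and 22.8 in Lgr5+. Scrg1, a secreted protein of mesenchymal and cartilage cells, was at 65.1, 6.9 and 107 FPKM, 8.37-fold lower in Lgr5- than in Sox9+ and highest in the interzone-labelled cells. Lect1, which encodes the angiogenesis inhibitor chondromodulin, was at 537, 63.5 and 80.2 FPKM, 8.35-fold lower.

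The collagens that form mixed fibrils with type II collagen had ratios like that of Col2a1 itself. Col11a1 was at 412 FPKM in Sox9+ and 105 in Lgr5-, and Col11a2 at 553 and 132. The fibril-associated Col9a1, Col9a2 and Col9a3 were at 608, 766 and 792 FPKM in Sox9+ against 184, 217 and 206 in Lgr5-. Acan, the core protein of aggrecan, was at 101 and 18.3 FPKM, and Hapln1, the link protein that ties aggrecan to hyaluronan, at 107 and 20.1. Thus fibrillar and proteoglycan components were lower side by side, the proteoglycan components by somewhat larger ratios in these examples.

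Non-collagenous matrix proteins separated the E14.5 libraries as well. Matn1, a matrilin of growing cartilage, was at 546 FPKM in Sox9+, 93.8 in Lgr5- and 41.5 in Lgr5+, and Comp, which binds collagen fibrils, was at 120, 15.8 and 3.9. In these genes the Lgr5- value lay between the others. In contrast Prelp, a leucine-rich matrix protein, was at 42.1, 6.83 and 37.6 FPKM, and Mia1 (the older symbol of Mia, a secreted cartilage protein) was at 350, 132 and 348. For Prelp, Mia1 and Chad (64.98, 16.2 and 49.4 FPKM) the Lgr5+ library was near the Sox9+ library and the Lgr5- library was the low one.

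**Figure D2:**
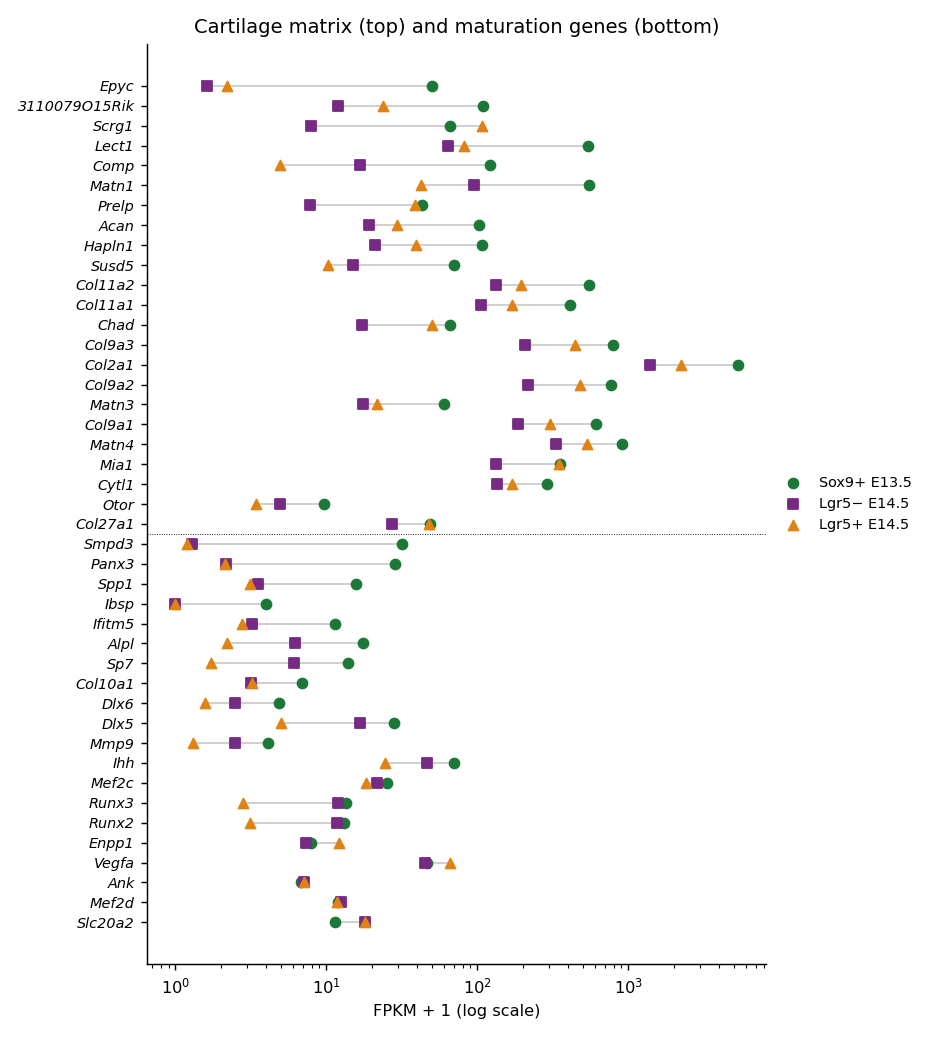
FPKM + 1 on a log axis for cartilage matrix and chondrocyte maturation genes, 1 row per gene and 1 symbol per library (Sox9+ E13.5, Lgr5- E14.5, Lgr5+ E14.5). The Sox9+ symbol lies to the right of the Lgr5- symbol for each of the 23 cartilage matrix genes, and the largest gaps are those of Epyc, Smpd3 and Panx3.

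Enzymes that supply the cartilage matrix were lower in smaller number. In the list for sulfation and glycosaminoglycan synthesis 7 of 23 measured genes were lower, none was higher and the median was -0.53. Slc26a2, the sulfate transporter, was at 22.6 FPKM in Sox9+, 6.11 in Lgr5- and 7.58 in Lgr5+ (3.31-fold lower), and Slc35d1, which carries nucleotide sugars into the endoplasmic reticulum, was at 41.8, 12.2 and 22.2 (3.24-fold lower). Chst11, a chondroitin sulfotransferase, and Ugdh, which makes UDP-glucuronate, were 2.79-fold and 2.60-fold lower, and the sulfate-activating enzyme Papss2 was at 102, 40.4 and 59.3 FPKM. Hyaluronan synthase Has2 was at 5.57 and 6.16 FPKM and was within 2-fold, as were the linkage-region enzymes B4galt7, B3galt6 and B3gat3.

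Collagen-modifying enzymes fell on both sides. Of 27 measured, 7 were lower and 2 higher, with a median of -0.58. Plod2, a lysyl hydroxylase of collagen, was at 134 FPKM in Sox9+, 35.5 in Lgr5- and 132 in Lgr5+ (3.69-fold lower), and the prolyl hydroxylases P4ha2, P4ha1 and Leprel1 were 3.04-fold, 2.61-fold and 3.06-fold lower. The higher members were the lysyl oxidases Lox, at 21.2, 47.9 and 31.4 FPKM, and Loxl1, at 11.5, 27.2 and 13.95, which cross-link collagen and elastin outside the cell. The related Loxl3 (27.7, 11.02 and 25.6 FPKM) and Loxl4 (2.14, 0.43 and 0.3) were lower, so the lysyl oxidase family was split.

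Regulators of chondrogenesis differed less than the matrix genes. In that list 5 of 19 measured genes were lower and none was higher, with a median of -0.64. The transcription factors Sox6 (30.3 FPKM in Sox9+, 10.96 in Lgr5-, 38.6 in Lgr5+) and Sox5 (21.3, 10.02 and 35.1) were lower with log2 ratios of -1.39 and -1.02, and both were highest in the Lgr5+ library. Wwp2, the ubiquitin ligase gene that hosts miR-140, was at 233, 98.6 and 193 FPKM, and Fgfr3, the FGF receptor that restrains chondrocyte growth, was at 87.7, 36.8 and 41.7. Foxa3, a forkhead factor of maturing chondrocytes, was at 9.6, 2.47 and 3.36 FPKM. Pth1r, the receptor for parathyroid hormone-related protein, was at 106, 131 and 72.3 FPKM, within 2-fold.

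Late markers of chondrocyte maturation and mineralization were lower, while several of their upstream regulators were within 2-fold. Of 21 measured genes 8 were lower and 1 was higher, with a median of -0.72, while Bglap, Dmp1, Mmp13 and Phospho1 did not reach 1 FPKM in either library. Smpd3, a sphingomyelinase needed for skeletal mineralization, was at 30.7 FPKM in Sox9+, 0.29 in Lgr5- and 0.19 in Lgr5+, 24.5-fold lower. Panx3, a channel protein of prehypertrophic chondrocytes and osteoblasts, was at 27.7, 1.16 and 1.14 FPKM, 13.3-fold lower. Both were therefore close to or below 1 FPKM in both E14.5 libraries.

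The bone-matrix genes Spp1 (14.7, 2.5 and 2.13 FPKM) and Ifitm5 (10.4, 2.22 and 1.74) were 4.49-fold and 3.53-fold lower, and Ibsp was at 3 FPKM in Sox9+ and listed at 0 in both E14.5 libraries. Alpl, the alkaline phosphatase of mineralizing tissue, was at 16.4 FPKM in Sox9+, 5.16 in Lgr5- and 1.2 in Lgr5+, and the osteoblast factor Sp7 was at 12.95, 5.07 and 0.73. Col10a1, the collagen of hypertrophic cartilage, was at 5.85, 2.17 and 2.24 FPKM. In contrast Ihh, the hedgehog ligand of prehypertrophic chondrocytes, was at 68.7, 45.4 and 23.5 FPKM, and the factors Runx2 (12.02, 10.7 and 2.1) and Runx3 (12.5, 10.9 and 1.81) were nearly equal in the Sox9+ and Lgr5- libraries.

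The retinoic acid pathway was on the higher side in the Lgr5- library. Retinol enters cells through Stra6, is oxidized by Rdh10 and then by Aldh1a2 to retinoic acid, which acts through Rar and Rxr receptors and is removed by Cyp26 enzymes. Of 16 measured genes 6 were higher, 1 was lower and the median was 0.32, while Aldh1a1, Aldh1a3 and Cyp26c1 did not reach 1 FPKM. Rdh10 was at 29.8 FPKM in Sox9+, 105 in Lgr5- and 39.4 in Lgr5+ (3.43-fold higher in Lgr5-). The binding proteins Crabp1 (108, 241 and 97.6 FPKM) and Crabp2 (128, 288 and 125) were 2.23-fold and 2.24-fold higher. In each of these genes, as in Stra6, the Lgr5- library was the highest of the 3.

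Synthesis and receptors did not all follow uptake. Aldh1a2, which makes retinoic acid in limb mesenchyme, was at 32.5 FPKM in Sox9+, 26.1 in Lgr5- and 4.41 in Lgr5+, within 2-fold. Rarb, a receptor gene that retinoic acid induces, was at 6.41, 20.9 and 8.6 FPKM (2.96-fold higher), whereas Rara (14.1, 18.6 and 12.7) and Rarg (60.2, 54.9 and 57.8) were within 2-fold. Of the degrading enzymes Cyp26a1 was at 12.03, 3.56 and 8.96 FPKM, 2.86-fold lower and the single lower gene of the list, and Cyp26b1 was at 16.5, 19.96 and 17.7.

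Rarb and Cyp26a1, which differed in opposite directions, are shown because their upstream windows were the only ones among 15 pathway genes with a RefSeq window that held the response element TTCANNNNNAGTTCA, a direct repeat of the retinoic acid receptor half-site with 5 bases between, on either strand. That string was in 0.0913% of all 32851 windows of 250 bases upstream of a RefSeq gene start. Here and below a gene was counted if any of its windows matched. The share is per window, so it and the gene count are unlike measures. The windows are chr14:16575477-16575726 on the minus strand for Rarb and chr19:37697558-37697807 on the plus strand for Cyp26a1 (RefSeq, GRCm38.p6), written from 5' to 3' with the match in capitals.
Rarb: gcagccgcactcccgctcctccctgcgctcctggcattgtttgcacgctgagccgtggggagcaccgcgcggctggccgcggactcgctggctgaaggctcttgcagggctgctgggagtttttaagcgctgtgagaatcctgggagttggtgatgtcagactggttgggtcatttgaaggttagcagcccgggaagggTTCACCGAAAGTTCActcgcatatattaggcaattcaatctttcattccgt
Cyp26a1: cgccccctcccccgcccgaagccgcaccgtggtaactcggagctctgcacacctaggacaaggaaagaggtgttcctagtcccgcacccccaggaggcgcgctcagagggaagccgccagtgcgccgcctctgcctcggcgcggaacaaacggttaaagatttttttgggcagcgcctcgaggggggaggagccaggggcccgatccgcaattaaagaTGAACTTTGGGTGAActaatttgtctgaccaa
The Cyp26a1 match is on the opposite strand and so reads as the reverse complement. A match is a description of the letters and not evidence of binding, and these 2 genes with the same element had log2 ratios of 1.56 and -1.51.

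Wnt target genes were higher in 4 of 17 measured cases and lower in 2, with a median of 0.59, while Dkk4, Rnf43 and Sp5 did not reach 1 FPKM. The higher ones all encode inhibitors of the pathway. Apcdd1, a membrane inhibitor of Wnt receptors, was at 4.23 FPKM in Sox9+, 30.7 in Lgr5- and 5.66 in Lgr5+, 6.07-fold higher. Nkd2, which acts on Dishevelled, was at 5.62, 32.5 and 14.4 FPKM (5.06-fold higher), and the secreted antagonist Wif1 was at 23.2, 57.2 and 45.3. With Axin2 these made up the 4, and Nkd1 (6.57, 13.9 and 6.74 FPKM) was just short of the limit at 0.98.

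The lower Wnt targets were Myc and Notum. Myc, a growth-promoting transcription factor with many other inputs, was at 172 FPKM in Sox9+, 29.3 in Lgr5- and 55.7 in Lgr5+, 5.71-fold lower. Notum, an enzyme that inactivates Wnt ligands, was at 6.05, 2.46 and 1.54 FPKM, 2.04-fold lower. Lef1, a transcription factor of the pathway, was at 30.5, 36.3 and 12.7 FPKM and within 2-fold. A TCF/LEF site was also searched, as CTTTGATC on either strand of the upstream windows. It was in 0.801% of all windows and in 2 of 11 Wnt target genes with a window, Sp5 and Tnfrsf19. Tnfrsf19 had a log2 ratio of 0.68, and Sp5 was not measured.

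Among secreted Wnt regulators 3 of 18 measured genes were higher and 3 lower, and the median of -0.08 was above 0 under 2 of 6 other scalings. Dkk2, a secreted Wnt antagonist, was at 2.92 FPKM in Sox9+, 30.03 in Lgr5- and 11.99 in Lgr5+, 7.92-fold higher. The ligand Wnt5a, which drives limb outgrowth, was at 39.1, 95.5 and 76.5 FPKM (2.40-fold higher), and Sostdc1, an antagonist of Wnt and BMP signals, at 16.98, 36.6 and 13.7. On the lower side Frzb, a decoy receptor made by chondrocytes, was at 20.8, 1.77 and 2.12 FPKM (7.88-fold lower), with its relative Sfrp5 at 3.77, 1.11 and 0.36 and Sfrp4 at 1.11, 0.03 and 0.69. The more abundant decoy receptor Sfrp2 was at 363, 203 and 451 FPKM, within 2-fold and highest in Lgr5+.

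**Figure D3:**
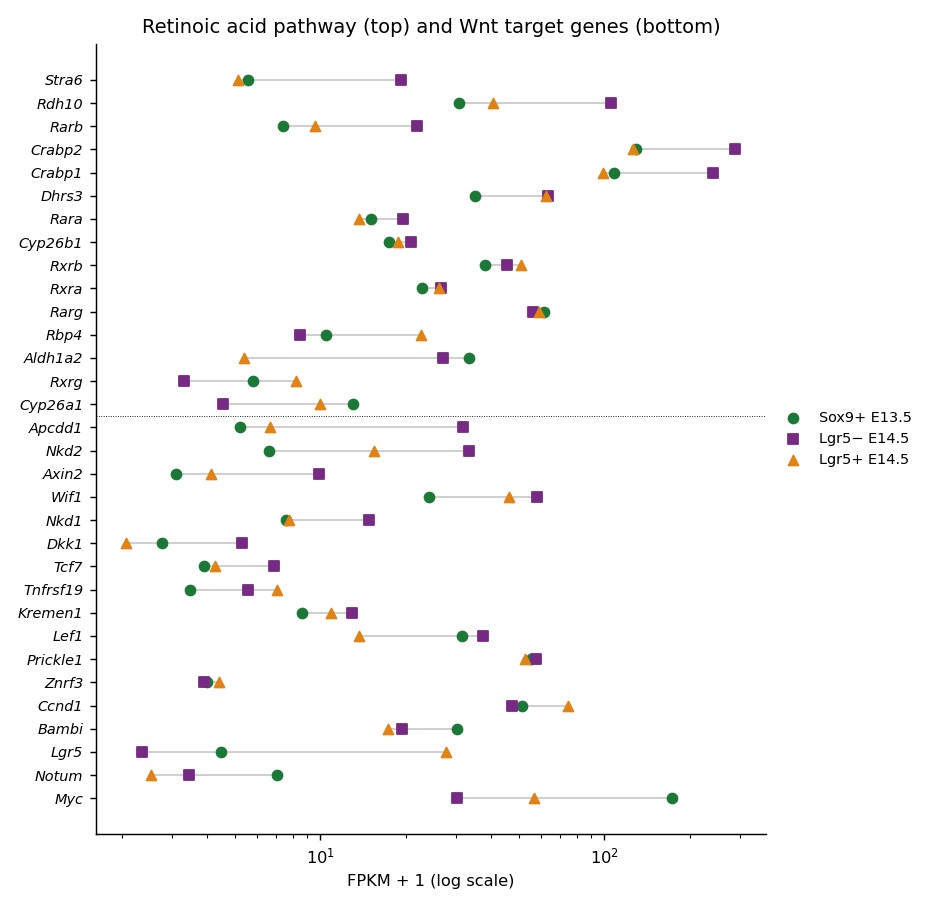
FPKM + 1 on a log axis for retinoic acid pathway genes (top) and Wnt target genes (bottom), 1 symbol per library. The Lgr5- symbol lies farthest right for Stra6, Rdh10, Rarb, Crabp1, Crabp2, Apcdd1, Nkd2 and Axin2, and farthest left for Cyp26a1, Lgr5 and Myc.

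Genes that pattern the distal limb were more often on the higher side. Of 31 measured, 10 were higher and 6 lower, with a median of 0.57. Tfap2b, a transcription factor of limb mesenchyme, was at 2.09 FPKM in Sox9+, 13.1 in Lgr5- and 8.42 in Lgr5+, 4.56-fold higher. The mesenchymal homeobox genes Prrx2 (76.03, 263 and 91.3 FPKM), Msx1 (37.8, 117 and 67.3) and Prrx1 (32.2, 70.1 and 28.2) were also higher, as was the dorsal determinant Lmx1b (5.31, 15.6 and 8.17). Prrx1 and Prrx2 were close to equal in the Sox9+ and Lgr5+ libraries and high in the Lgr5- library alone.

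On the lower side were mainly genes of more proximal limb segments. Shox2, which is needed for the stylopod, was at 56.2 FPKM in Sox9+, 9.93 in Lgr5- and 8.69 in Lgr5+, 5.24-fold lower. The proximal markers Meis1 (4.92, 0.42 and 0.48 FPKM) and Meis2 (3.21, 1.05 and 2.89) were 4.17-fold and 2.05-fold lower, and Hoxa11, a gene of the zeugopod, was at 12.7, 4.44 and 5.02. The BMP antagonist Grem1 (7.16, 1.11 and 2.71) was 3.87-fold lower, and the zinc finger gene Sall3 was at 2.65, 0.37 and 0.45.

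Along the Hox clusters the differences followed gene position in part. Of 22 measured Hox genes 3 were higher, 8 lower and the median was -0.79. The higher genes were the 5'-most, autopod-expressed Hoxa13 (30.1 FPKM in Sox9+, 78.4 in Lgr5- and 71.3 in Lgr5+), Hoxd13 (62.8, 149 and 134) and Hoxd12 (26.04, 71.8 and 33.6), by 2.55-fold, 2.35-fold and 2.69-fold. Next to them Hoxd11 was at 47.8, 85.6 and 65.6 FPKM and Hoxd10 at 11.6, 17.8 and 18.6, both within 2-fold, and Hoxd9 was at 11.1, 5.75 and 7.05. Toward the 3' ends of the clusters Hoxa5 (8.96, 2.36 and 1.97) and Hoxd8 (3.76, 0.6 and 2.08) were 2.96-fold and 2.98-fold lower. The Hoxa cluster did not keep to that order. Its Hoxa11 and Hoxa10 had log2 ratios of -1.34 and -0.70, below those of the more 3' Hoxa9 (-0.49) and Hoxa7 (-0.46). The library kit is of a type that does not mark the strand, so reads of Hox antisense transcripts cannot be separated from those of the genes they overlap.

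Hindlimb genes were lower in the Lgr5- library, which came from forelimb digits, than in the Sox9+ library, whose limb is not named. Of 5 measured, 3 were lower and none was higher, with a median of -2.79. Hoxc10, a posterior Hox gene of the hindlimb, was at 17.02 FPKM in Sox9+, 0.21 in Lgr5- and 0.37 in Lgr5+, 14.9-fold lower, and Hoxc9 was at 6.32, 0.06 and 0.34. Isl1, which starts hindlimb outgrowth, was at 6.86, 0.14 and 0.02 FPKM, 6.89-fold lower. Pitx1, the hindlimb determinant, was at 161, 83.2 and 56.5 FPKM and Tbx4 at 36.8, 28.02 and 21.99, both within 2-fold and both present in the libraries labelled forelimb. Tbx5, the forelimb determinant, was at 4.92, 11.9 and 20.9 FPKM, 2.18-fold higher in Lgr5-. Hoxc6, the other measured member of the forelimb list, was at 1.37, 0.04 and 0.03 FPKM and so lower, and Hoxc4, Hoxc5 and Hoxc8 of that list were under 1 FPKM in Sox9+ and listed at 0 in Lgr5-. The Sox9+ library thus held RNA of Hoxc9, Hoxc10 and Isl1 that was nearly missing from both forelimb libraries, and the part of limb origin in the other differences was not tested.

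**Figure D4:**
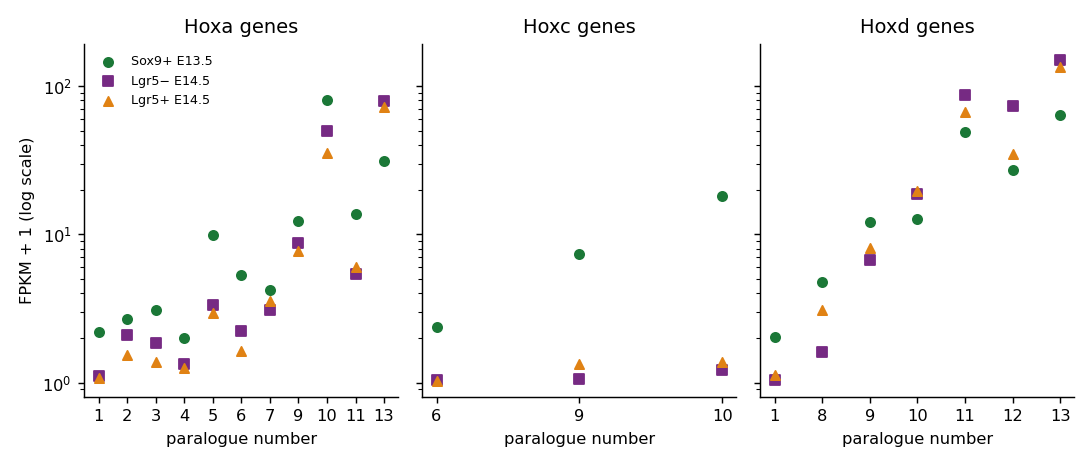
FPKM + 1 on a log axis for the measured Hox genes of the Hoxa, Hoxc and Hoxd clusters by paralogue number, 1 symbol per library. The Hoxb cluster is not drawn. In the Hoxa cluster the Lgr5- symbol lies below the Sox9+ symbol at every gene drawn except Hoxa13. In the Hoxd cluster it lies below at Hoxd1, Hoxd8 and Hoxd9 and above from Hoxd10 to Hoxd13. Hoxc9 and Hoxc10 are well above 1 FPKM only in the Sox9+ library.

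Tendon genes were higher in 5 of 19 measured cases and lower in 1, with a median of 0.08. Kera, the corneal and tendon proteoglycan keratocan, was at 1.34 FPKM in Sox9+, 14.52 in Lgr5- and 80.6 in Lgr5+, 6.63-fold higher, and the proteoglycan Dcn was at 7.97, 35.98 and 115. Tnmd, the membrane marker of tendon cells, was at 3.38, 16.01 and 41.6 FPKM, and the tendon transcription factor Mkx at 8.59, 29.1 and 32.6. Scx, the marker of tendon progenitors, was at 42.5, 80.6 and 195 FPKM and within 2-fold, and Tgfbi, an adhesive matrix protein, was at 285, 137 and 864, 2.08-fold lower. For every gene named here the Lgr5+ library was the highest.

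Interzone and joint genes were balanced between Lgr5- and Sox9+, with 3 of 25 higher, 3 lower and a median of 0.06. Gdf5, the growth factor of forming joints, was at 59.9 FPKM in Sox9+, 71.7 in Lgr5- and 615 in Lgr5+. Osr1, a transcription factor of connective tissue and joint cells, was at 12.8, 47.6 and 76.4 FPKM (3.51-fold higher in Lgr5-). Lower were the BMP antagonists Chrdl2 (5.52, 0.85 and 14.3 FPKM) and Nog (56.5, 22.4 and 62.8) and the homeobox gene Barx1 (55.4, 23.8 and 92.04). Gdf5 was thus nearly level between the compared libraries, and the Lgr5+ library alone was high.

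Of 30 fibrous connective tissue and perichondrium genes 2 were higher, 2 lower, and the median was 0.37. Those counts are 6.67% on each side, beside 3.08% higher and 4.94% lower of all measured genes. Dpt, an extracellular matrix protein of dermis, was at 0.42 FPKM in Sox9+, 3.07 in Lgr5- and 3.23 in Lgr5+, and Pdgfrb, a growth factor receptor of mesenchyme, was at 19.6, 47.1 and 17.04. Twist1, which holds mesenchyme undifferentiated, was at 111, 223 and 70.3 FPKM, just under 2-fold. Col1a1, the type I collagen gene, was at 769, 998 and 1198 FPKM and within 2-fold. Mgp, an inhibitor of calcification made by cartilage as well, was at 348, 133 and 295 FPKM and the forkhead gene Foxc1 at 117, 49.1 and 131, both lower. Col1a1 was thus within 2-fold where most cartilage matrix genes were lower.

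BMP pathway genes were lower in 8 of 30 cases and higher in 1, with a median of -0.34. The ligands Bmp2 (60.7 FPKM in Sox9+, 18.2 in Lgr5- and 16.1 in Lgr5+) and Bmp6 (5.23, 0.93 and 4.78) were 3.22-fold and 3.23-fold lower, while Bmp3 (1.76, 5.68 and 1.32) was 2.42-fold higher. Bmp4 (14.1, 18.4 and 10.1) and Bmp7 (38.8, 52.5 and 21.8) were within 2-fold, as were the transcriptional targets Id1, Id2 and Id3, while Id4 was at 129, 47.4 and 73.1. The lower genes included the antagonists Grem1, Nog and Chrdl2 given above, while the antagonist Chrd (2.72, 5.69 and 11.4) was within 2-fold, so ligands and antagonists were found on both sides of 0.

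In the hedgehog list 2 of 14 genes were higher and 1 was lower, with a median of 0.46. Foxf2 was at 2.52 FPKM in Sox9+, 20.2 in Lgr5- and 2.85 in Lgr5+ (6.02-fold higher), and its paralogue Foxf1, listed as Foxf1a, was at 7.37, 0.58 and 1.26 (5.30-fold lower). Both encode forkhead factors of mesenchyme that respond to hedgehog, and they lay on opposite sides. Gas1, a hedgehog co-receptor, was at 112, 251 and 285 FPKM, while the target genes Ptch1 (33.01, 27.6 and 20.5) and Gli1 (18.4, 26.8 and 16.03) were within 2-fold.

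FGF pathway genes were split, with 3 of 20 higher and 3 lower and a median of -0.21. Dusp6, a phosphatase induced by FGF signals through ERK, was at 165 FPKM in Sox9+, 43.3 in Lgr5- and 45.4 in Lgr5+, 3.74-fold lower, and Fgfrl1, a decoy FGF receptor, was at 76.1, 33.7 and 57.2. The ligands Fgf9 (0.5, 2.95 and 1.7) and Fgf10 (2.45, 6 and 2.21) were higher, together with the feedback inhibitor Il17rd (2.63, 7.89 and 2.76). In Notch signalling 4 of 13 genes were lower and none was higher. Among the lower were the target Hey1 (40.5, 11.97 and 12.9 FPKM) and the ligand Dll1 (3.21, 0.83 and 5.4). The median of the Notch list was -0.07, with 6 genes above 0 and 7 below, and ran from -0.06 to 0.06 over 6 other scalings. The more abundant target Hes1 was at 298, 285 and 605 FPKM, nearly level between Sox9+ and Lgr5-. Inhba, a subunit of activin, was at 19.6, 6.76 and 74.2 FPKM and Tgfbr2, a TGF-beta receptor, at 14.3, 33.6 and 19.8. They were the only lower and the only higher gene of 19 in the TGF-beta list, whose median was 0.06. That is 5.26% on each side, near the 4.94% lower and 3.08% higher of all measured genes. Igfbp2, which binds insulin-like growth factors, was at 45.04, 133 and 131 FPKM. It was the only one of 14 genes past 2-fold in the IGF list (7.14%), whose median was -0.07.

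**Figure D5:**
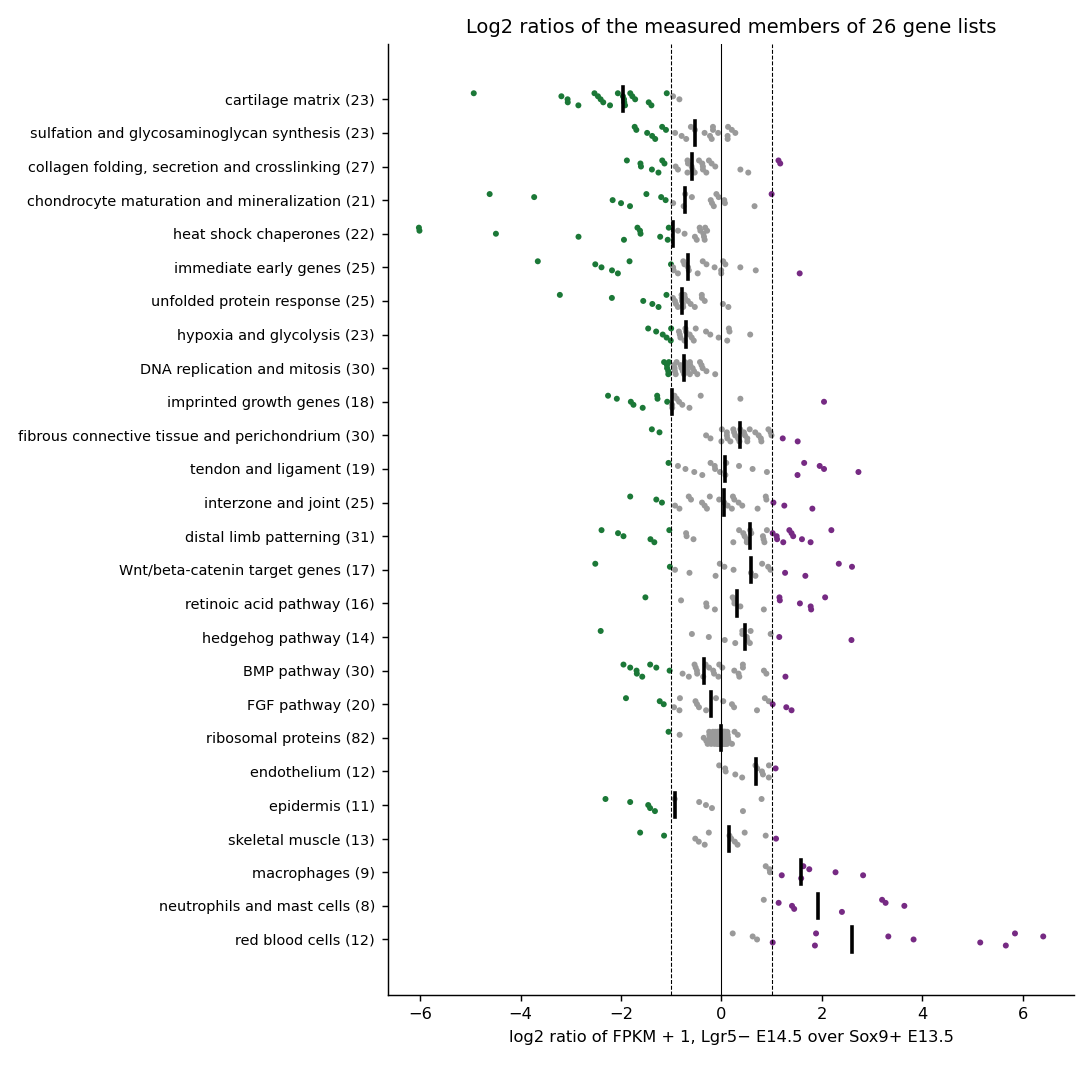
Log2 ratio of FPKM + 1, Lgr5- over Sox9+, for each measured member of 26 gene lists (1 point per gene, bar at the list's median, number of measured members in brackets). The cartilage matrix list lies wholly below 0 with a median of -1.96, the haemoglobin-rich red blood cell list lies above 0 with a median of 2.60, and most pathway lists straddle 0.

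Heat shock chaperones were lower in the Lgr5- library without exception in direction, and the cause of that was not tested. All 22 measured members had log2 ratios below 0, 11 were at least 2-fold lower, and the median was -0.96. Hspa1a, an inducible chaperone of the Hsp70 family, was at 1116 FPKM in Sox9+, 16.1 in Lgr5- and 20.2 in Lgr5+, 65.2-fold lower, and its near-identical copy Hspa1b was at 880, 12.6 and 16.3, so that the share of each gene is uncertain. Hspb1, a small heat shock protein, was at 276, 11.3 and 17.1 FPKM (22.5-fold lower), and Hsph1 at 176, 23.5 and 25.8. Hsp90ab1, a chaperone made without stress, was at 1162, 826 and 829 FPKM and within 2-fold. For the chaperones named so far both E14.5 libraries were close to each other and the Sox9+ library was the high one. That did not hold for the whole list, as Chordc1 was at 22.6, 15.4 and 23.05 FPKM and Ahsa1 at 89.5, 66 and 86.2.

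Upstream windows of 250 bases are shown for Hspa1a and Hspb1 because these genes had the largest ratios, apart from the Hspa1b copy, in the list. A heat shock element was searched as GAANNTTC on either strand. It was in a window of 7 of 18 list genes with a RefSeq window (Hspa1a, Hspa1b, Hspb1, Hspd1, Hspe1, Dnaja1 and Fkbp4). Of all 32851 windows 6.69% held it, a share per window and not per gene. The windows are chr17:34972157-34972406 on the minus strand and chr5:135887669-135887918 on the plus strand (RefSeq, GRCm38.p6), with matches in capitals, 1 in Hspa1a and 2 in Hspb1.
Hspa1a: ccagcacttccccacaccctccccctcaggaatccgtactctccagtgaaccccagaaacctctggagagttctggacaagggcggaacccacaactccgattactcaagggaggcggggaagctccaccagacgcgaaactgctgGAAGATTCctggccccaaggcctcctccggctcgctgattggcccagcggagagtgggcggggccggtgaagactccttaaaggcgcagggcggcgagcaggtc
Hspb1: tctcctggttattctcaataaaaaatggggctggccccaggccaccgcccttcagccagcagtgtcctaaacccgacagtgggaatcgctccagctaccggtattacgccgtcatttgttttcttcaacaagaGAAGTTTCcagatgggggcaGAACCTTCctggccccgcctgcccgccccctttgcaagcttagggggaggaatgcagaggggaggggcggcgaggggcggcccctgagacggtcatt
Among the genes with a match the log2 ratios ran from -6.03 for Hspa1a to -0.32 for Fkbp4, so that a match went with large and small differences alike.

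Targets of the unfolded protein response were lower in 6 of 25 cases and higher in none, with a median of -0.79. Chac1, a glutathione-degrading enzyme induced by Atf4, was at 14.3 FPKM in Sox9+, 0.64 in Lgr5- and 1.38 in Lgr5+, 9.31-fold lower. Herpud1, which helps degrade misfolded proteins of the endoplasmic reticulum, was at 99.3, 21.1 and 40.2 FPKM (4.54-fold lower), and the stress factor Ddit3 at 30.98, 11.3 and 14.7. Hspa5, the main chaperone of the endoplasmic reticulum, was at 1582, 740 and 1009 FPKM. The sensors Atf6, Atf6b, Ern1 and Eif2ak3 were within 2-fold.

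The Hspa5 window (chr2:34771840-34772089, plus strand, RefSeq, GRCm38.p6) is shown for its ER stress response element, searched as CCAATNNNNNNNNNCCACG on either strand and marked in capitals.
Hspa5: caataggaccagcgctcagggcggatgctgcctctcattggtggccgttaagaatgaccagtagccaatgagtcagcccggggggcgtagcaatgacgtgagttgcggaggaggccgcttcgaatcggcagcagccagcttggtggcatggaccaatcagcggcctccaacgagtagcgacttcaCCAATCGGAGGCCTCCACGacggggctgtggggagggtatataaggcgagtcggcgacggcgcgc
That string was in 0.113% of all windows, a share per window and not per gene. It was in 7 of 23 list genes with a window (Hspa5, Hsp90b1, Dnajc3, Pdia6, Calr, Canx and Creld2). All 7 had log2 ratios between -1.10 for Hspa5 and -0.53 for Calr. Of all 25 list genes, 23 were below 0 and the median was -0.79. Chac1 (-3.22), Herpud1 (-2.18) and Ddit3 (-1.38), with larger differences, were not among the 7.

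Immediate early genes, which dissociation can induce, were lower in 7 of 25 cases and higher in 1, with a median of -0.66. Ctgf and Cyr61, secreted matricellular proteins and targets of YAP, were at 426 and 1943 FPKM in Sox9+, 32.8 and 464 in Lgr5- and 65.2 and 397 in Lgr5+. Klf2 (501, 94.9 and 157 FPKM) and Atf3 (184, 39.8 and 55.3) were 5.24-fold and 4.53-fold lower. Fos was at 893 FPKM in Sox9+ and 891 in Lgr5-, and Ier2 at 808 and 805, so that both were level. Socs3, a feedback inhibitor of cytokine signalling, was at 46.03, 138 and 139 FPKM, 2.95-fold higher.

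Growth, glycolysis and imprinted genes also leaned to the lower side. Of 30 DNA replication and mitosis genes 6 were lower and none was higher, with log2 ratios from -1.14 to -0.12 and a median of -0.74. The lower count was 1 to 6 over 6 other scalings and 0 at a pseudocount of 5, so it depends on the scaling. Among the lower were the spindle motor Kif11 (21.1 FPKM in Sox9+, 9.01 in Lgr5- and 13.02 in Lgr5+) and Top2a (72.5, 34.3 and 42.8). Of 15 CDK inhibitors and exit genes 4 were lower as well, including Cdkn1a (16.4, 4.89 and 6.28) and Cdkn2b (2.62, 0.12 and 0.55). In the hypoxia and glycolysis list 6 of 23 were lower (3 to 5 over the other scalings) and none higher, with a median of -0.71, and the lactate exporter Slc16a3 was at 51.4, 18.04 and 40.9 FPKM. Vegfa, a hypoxia target, was at 45.7, 43.96 and 64.8 FPKM.

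Of 18 imprinted growth genes 8 were lower and 1 was higher, with a median of -0.98. Dlk1, a paternally expressed Notch-like membrane protein, was at 86.8 FPKM in Sox9+, 17.3 in Lgr5- and 39.1 in Lgr5+ (4.79-fold lower), and Plagl1, a zinc finger regulator of other imprinted genes, was at 92.2, 20.98 and 32.9 (4.24-fold lower). Peg3 (175, 58.4 and 75.4 FPKM) and Mest (955, 392 and 426) were also lower, and H19 (968, 564 and 1272) and Igf2 (585, 315 and 554) were within 2-fold. The higher member was Dcn, already given among the tendon genes. Ribosomal protein genes, by comparison, had 82 measured members of which 1 was past 2-fold.

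Markers of blood cells stood out on the higher side. Of 12 red blood cell genes 9 were higher and none lower, and their FPKM summed to 188 in Sox9+, 5568 in Lgr5- and 208 in Lgr5+. Rhag and Epb4.2, genes of the red cell membrane, were among those listed at 0 in Sox9+. None of the list was at 0 in Lgr5-, but Epb4.2 was only at 0.15 FPKM there. The globin genes Hba-a1 (23.03, 2043 and 66.6 FPKM), Beta-s (25.7, 1537 and 37.1) and Hbb-b1 (22.8, 1207 and 35.4) were 85.1-fold, 57.6-fold and 50.7-fold higher, although these near-identical copies share reads and the split among them is uncertain. Alas2, the erythroid enzyme of haem synthesis, has no such copy and was at 0.86, 25.4 and 1.16 FPKM, 14.2-fold higher. Neutrophil and mast cell markers summed to 3.67, 56.1 and 9.79 FPKM. Of 8 measured 7 were higher, but all except Kit reached 1 FPKM through the Lgr5- library alone, so the minimum fixed the direction of that count. They included the mast cell proteases Cma1 (0.39, 12.4 and 2.26) and Cpa3 (0.81, 15.6 and 2.79) and S100a8 at 11.5 in Lgr5-. In Sox9+ 9 of the 13 listed neutrophil and mast cell genes were at 0, S100a8, S100a9, Elane and Ngp among them. In Lgr5- 1 was, Fcer1a. Of all 23284 symbols, 6520 were at 0 in Sox9+ and 6461 in Lgr5-. Several of the listed genes were also under 1 FPKM in Lgr5-, with Mcpt4 at 0.05, Ltf at 0.24, Elane at 0.41 and Camp at 0.8. With depth unknown, 0 against such values does not show absence. Macrophage markers summed to 14.7, 64.1 and 111 FPKM and 6 of 9 were higher (3 of the 9 passed the minimum through Lgr5- alone). Among them lysozyme Lyz2 was at 1.08, 13.7 and 7.48. Aif1 and Fcgr1 were listed at 0 in Sox9+ and at 1.3 and 0.2 FPKM in Lgr5-.

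Markers of other cell types were also present in each library. Endothelial genes summed to 32.3 FPKM in Sox9+, 48.2 in Lgr5- and 55.7 in Lgr5+, with 1 of 12 higher (8.33%). Skeletal muscle genes summed to 41.2, 38.9 and 139 FPKM, with 1 of 13 higher (7.69%) and 2 lower (15.4%). The shares of all measured genes were 3.08% higher and 4.94% lower. Epidermal genes summed to 78.2, 36.6 and 85.5 FPKM, with 5 of 11 lower, among them Perp (11.9, 1.6 and 10.1) and Krt14 (4.43, 0.54 and 6.76). Schwann cell, melanocyte and nerve genes summed to 63.8, 42.4 and 34.4 FPKM, with 5 of 10 lower, among them Sox10 at 10.1, 2.76 and 5.88, and 2 higher. Beside the 11902 and 3157 FPKM of the cartilage matrix list in Sox9+ and Lgr5-, these sums are small, and their part in the differences of the other lists was not tested.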

How the data were processed

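RNA-seq was read in 3 libraries, 1 per sorted population, each from 10 ng RNA by a SMARTer low-input protocol, per the labels' protocols. The deposited values are FPKM per gene symbol, made by the authors and given to 2 decimals. Per the submitters' processing notes, HISAT2 and build mm10 (GRCm38) were used. For the FPKM program, its annotation and its handling of multi-mapped reads, the answer is not given in the sources used here. Depth is unknown, so precision at low FPKM is too.

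Log2 ratios used a pseudocount of 1 FPKM, a minimum of 1 FPKM in the higher library and a 2-fold limit, in Python 3.11.15 with pandas 2.3.3 and numpy 2.4.6, tested on simulated data. No test could be run on single libraries. Of the listed symbols 25 had become spreadsheet dates and went unmatched to any list. Gene positions are from GENCODE M21. Named genes were the 20 highest and 20 lowest, the 10 and 10 among genes of at least 20 FPKM, the markers, the sorting genes and up to 4 members per list of 42, plus members against a list's majority. Other list members are named for their role, after their values were seen. In the lists 4 symbols were matched by an older name, and Hbb-bt and Ahsp had no match. The genes, lists and motifs were chosen with earlier results of these data known. Some list members are counted but not reported here by name or in the plots. Other pseudocounts, minimums and scalings were tried.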

Additional observations from a re-analysis of the deposited data

How the results depend on the processing

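Of the 180 named genes 176 were past 2-fold, and none of these turned direction in any of 11 other settings where it was measured. Of the 176, 57 fell below 2-fold in at least 1 setting, 12 of them under 1 or more of 6 scalings. Among the 12 were Ccna2, Ccnb1, Gadd45g, Lfng, Meis2, Notum, Pgk1, Rpl30, Sfrp4, Tgfbi and Top2a. Named genes that a higher minimum left unmeasured are not counted as lost. At a minimum of 5 FPKM 156 of the 180 were measured, and at 10 FPKM 131. Higher genes numbered 720 and lower genes 957 at a pseudocount of 0.1, and 139 and 273 at a pseudocount of 5. A minimum of 5 FPKM left 253 higher genes, a minimum of 10 FPKM left 180 higher and 369 lower, and TPM, where the pseudocount is also smaller relative to the values, gave 646 higher. Dropping the minimum altered no call, by construction. Higher maturation genes came to 0 at a pseudocount of 5, at minimums of 5 and 10 FPKM and under quantile normalization, and a pseudocount of 5 left 5 lower maturation genes. Lower Wnt targets came to 1 at a pseudocount of 5, a minimum of 10 FPKM, upper quartile scaling and scaling without haemoglobin and Rn45s or without the 100 most abundant genes. Lower retinoic acid genes came to 2 at a pseudocount of 0.1 and 0 at a pseudocount of 5. Over the 6 scalings, higher counts reached 6 for interzone, 5 for perichondrium, 3 for BMP, 5 for FGF, 2 for IGF, 2 for muscle, 5 for endothelium and stayed at 6 to 9 for macrophages, and lower tendon genes came to 0. Of 42 list medians 2 that lay at least 0.2 from 0 reversed, Y-linked and Xist genes to -0.0441 at a minimum of 5 FPKM and Hox genes to 0.0437 at a minimum of 10 FPKM, where fewer genes are measured, and 8 medians nearer to 0 changed sign. No paired analysis was possible because each group is 1 library. Depth is unknown, which limits what can be said of genes at a few FPKM.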

Other observations

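Outside the lists, several genes with a known product had large ratios on the higher side. Chodl, a membrane lectin, was at 1.35 FPKM in Sox9+, 34.5 in Lgr5- and 18.6 in Lgr5+, 15.1-fold higher in Lgr5-. The neuropeptide gene Sst was at 0.23, 15.6 and 4.07 FPKM, and Cpxm2, a carboxypeptidase-like protein, at 1.19, 20.2 and 10.3, 9.68-fold higher. In all 3 genes the Sox9+ library was the lowest and the Lgr5+ library lay between. Cd52, a surface glycoprotein of leukocytes, was at 8.86 FPKM in Lgr5-, 2.87 in Lgr5+ and listed at 0 in Sox9+.

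Unnamed transcripts and a pseudogene had larger ratios still, namely Gm5506 (136, 2.55 and 3.68 FPKM, 38.7-fold lower) and Atp6v0c-ps2 (0.05, 29.03 and 0.06, 28.6-fold higher), and Gm12238 was at 56.1 in Lgr5- and listed at 0 in both other libraries. A pseudogene can share reads with its parent gene, so its value is uncertain. Short RNA genes filled much of the extremes, with 13 of the 20 lowest and 5 of the 20 highest ratios. Of 47 measured, 29 were past 2-fold, 9 higher and 20 lower, and 20 of these were listed at 0 in the other library. FPKM of such short genes rest on few fragments, so they were counted and not described.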
